A study of Homo sapiens with 18 samples.

Results

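The genes of the FAK, paxillin and p130Cas complex changed in opposite directions in NAT10-KD PANC-1 cells. The 10 genes, of 58302 in the expression table, were taken as a list of symbols and matched to their Ensembl identifiers: the kinases PTK2 and SRC, the scaffolds PXN and BCAR1, the Crk adaptors CRK and CRKL with their exchange factor RAPGEF1, and the actin linkers TLN1, VCL and ZYX. RNA of BCAR1, SRC, CRKL, VCL and ZYX was lower in shNAT10 cells, RNA of PTK2, RAPGEF1 and TLN1 was higher, and PXN and CRK did not pass the test. RAPGEF1, which rose 3.25-fold, was the 1 gene of the 10 beyond a 2-fold change. In acRIP-seq, 9 of the 10 genes had a listed peak in the shCtrl group and 7 in the shNAT10 group, and 7 genes had peaks in both. Over all genes tested in RNA-seq, the shares with a peak were 49.6% and 47.7%. With a mean shCtrl FPKM of at least 5 they were 60.6% and 58.7%. Peaks in shCtrl only were listed for 2 of the 10 genes and for 15.8% of all genes tested. Overlap of at least 1 base with a shNAT10 peak was found for 11 of the 14 shCtrl peaks of TLN1. For ZYX it was 3 of 3, for RAPGEF1 2 of 5, for CRK 1 of 2, and none for BCAR1, CRKL and VCL. Over all shCtrl peaks the share was 25.6%. Some of these overlaps were as short as 1 base. When each peak had to be covered to 50% by the other, 8 of the 35 shCtrl peaks remained (22.9%), against 12.7% of all.

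Focal adhesions join integrins, the receptors for the extracellular matrix, to the actin cytoskeleton. When integrins cluster, FAK, the kinase that PTK2 encodes, phosphorylates itself and binds the kinase Src, and the pair phosphorylates the scaffolds paxillin (PXN) and p130Cas (BCAR1). Phosphorylated paxillin and p130Cas bind the SH2 domains of CRK and CRKL, whose SH3 domains bring in exchange factors such as C3G (RAPGEF1), which loads the small GTPase Rap1 with GTP. Talin (TLN1) binds the integrin tail and actin and, under force, opens binding sites for vinculin (VCL), while zyxin (ZYX) gathers on stressed actin fibres. NAT10 is the enzyme that writes N4-acetylcytidine (ac4C) on RNA, and the study asked what its loss changes in pancreatic cancer cells.

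PANC-1 is an established line from a pancreatic ductal carcinoma. Cells infected with a control lentivirus (shCtrl) were compared with cells infected with an shRNA against NAT10 (shNAT10), by RNA-seq with 3 libraries per group and by acRIP-seq, in which RNA fragments are precipitated with an antibody against ac4C, with 3 IP and 3 input libraries per group. Both groups carry a lentiviral vector. The labels describe the control vector as empty, while the study's list of oligonucleotides gives a non-targeting shRNA as control. The sources used here do not name which NAT10 shRNA these libraries hold, and they do not say whether the cells were a clone or a pool. Nothing in the labels says that replicates came from separate cultures, so p-values measure the spread between these libraries, which may be technical. Expression was deposited as FPKM, reads scaled by transcript length and by the depth of the library, with 15831720 to 23521762 reads behind each library. In a bulk sample, fewer cells that express a gene and less RNA per cell cannot be told apart. The knockdown was seen in every library: NAT10 stood at 31.6, 27.7 and 28.6 FPKM in shCtrl and at 7.92, 8.43 and 7.90 FPKM in shNAT10 (log2 fold change -1.84, limma adjusted p = 3.85e-05). The epithelial markers KRT8, KRT18, KRT19, KRT7 and EPCAM were present in all libraries, between 4.01 and 2009 FPKM. Of 15 markers of leukocytes, fibroblasts, endothelium and Schwann cells, COL3A1 reached 2.04 FPKM and the other 14 stayed at or below 0.107 FPKM. The shCtrl replicate 2 stood apart from the other libraries. Its deviations from the mean over both groups followed GC content across genes (Spearman's rho 0.405) and transcript length (rho -0.44). These deviations also hold differences between the groups. The values of each test without this library are given below where they matter.

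The stretches of mRNA on which the acRIP results turn are shown first. Each lies in the coding sequence, comes from GENCODE v29 transcripts on GRCh38, and is printed 5′ to 3′ on the strand of the mRNA, with introns removed. Capitals mark the longest run of C followed by any 2 bases (CNN), repeated at least 4 times, the kind of repeat in which ac4C has been described. BCAR1 is shown for both groups because its single peak lay at another place in each group: at chr16:75242814-75242994 (minus strand) in shCtrl, and between 75236993 and 75237387 in shNAT10. Of the 211 bases of the shNAT10 peak, the 168 that lie on the longest coding transcript are printed, in 2 exons between 75236993 and 75237344.
BCAR1, shCtrl peak, transcript bases 236 to 416: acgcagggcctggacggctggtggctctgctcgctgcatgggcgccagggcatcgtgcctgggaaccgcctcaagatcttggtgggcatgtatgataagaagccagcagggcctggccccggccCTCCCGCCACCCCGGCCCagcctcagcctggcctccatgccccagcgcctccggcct
BCAR1, part of the shNAT10 peak, transcript bases 761 to 928: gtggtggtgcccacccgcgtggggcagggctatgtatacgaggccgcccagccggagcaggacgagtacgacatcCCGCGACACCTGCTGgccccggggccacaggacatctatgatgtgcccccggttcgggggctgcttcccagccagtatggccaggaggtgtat
PXN is shown for the coding peak at chr12:120222562-120222711 (minus strand), which was listed in shCtrl and had no counterpart in shNAT10. Its longest run holds 3 repeats, so nothing is in capitals.
PXN, shCtrl peak, transcript bases 1003 to 1152: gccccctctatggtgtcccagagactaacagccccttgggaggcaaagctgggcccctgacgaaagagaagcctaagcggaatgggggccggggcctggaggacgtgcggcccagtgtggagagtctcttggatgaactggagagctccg
RAPGEF1 is shown for the stretch that both groups shared and that held the highest fold enrichment of any peak of the 10 genes, in 2 exons between 131621936 and 131626098 of chr9 (minus strand).
RAPGEF1, shared stretch, transcript bases 1770 to 2009: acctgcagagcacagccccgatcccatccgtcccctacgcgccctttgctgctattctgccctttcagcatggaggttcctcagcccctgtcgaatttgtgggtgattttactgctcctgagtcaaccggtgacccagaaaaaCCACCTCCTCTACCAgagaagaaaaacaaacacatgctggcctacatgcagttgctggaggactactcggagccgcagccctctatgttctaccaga
TLN1 is shown for a stretch that its shCtrl peak with the highest fold enrichment shared with a shNAT10 peak. The stretch lies in 3 exons between 35713009 and 35714055 of chr9 (minus strand).
TLN1, shared stretch, transcript bases 3501 to 3741: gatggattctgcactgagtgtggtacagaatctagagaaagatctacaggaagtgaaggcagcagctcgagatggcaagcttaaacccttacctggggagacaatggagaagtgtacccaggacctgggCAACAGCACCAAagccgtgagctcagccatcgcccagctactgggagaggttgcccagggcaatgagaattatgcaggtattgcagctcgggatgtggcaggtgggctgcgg
ZYX is shown for its strongest peak in shNAT10, which had no counterpart in shCtrl, in 2 exons between 143388242 and 143388629 of chr7 (plus strand).
ZYX, shNAT10 peak, transcript bases 1392 to 1630: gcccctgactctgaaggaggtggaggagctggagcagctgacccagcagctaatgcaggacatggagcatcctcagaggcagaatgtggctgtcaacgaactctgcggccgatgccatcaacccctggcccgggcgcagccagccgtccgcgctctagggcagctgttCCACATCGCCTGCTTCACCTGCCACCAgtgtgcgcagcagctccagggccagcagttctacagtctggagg

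The longest runs held 9 repeats in ZYX, 6 in the shCtrl peak of BCAR1, 5 in its shNAT10 peak and in RAPGEF1, and 4 in TLN1. For comparison, 8246 shCtrl and 7769 shNAT10 peaks of 150 to 300 bases lay wholly on the longest coding transcript of their gene. A run of 4 or more was present in 48.5% and 48.0% of them. It is thus a common feature of such peaks, and its presence here is only a description. The stretches differed in base composition, from 54.6% GC in RAPGEF1 and 54.8% in TLN1 to 67.3% in the shNAT10 peak of BCAR1 and 70.7% in its shCtrl peak.

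In shCtrl cells, VCL stood highest of the 10 genes per length, at 90.6 ± 12.6 FPKM (SD, n = 3), followed by PXN at 80.7 ± 1.18 FPKM. The ranges of VCL and PXN overlapped, as did those of ZYX and TLN1, of CRKL and BCAR1, and of RAPGEF1 and SRC, which stood lowest. In shNAT10 cells the order was another one, with PXN first, then TLN1 and then VCL, and RAPGEF1 next to CRKL, the 1 pair of neighbours there whose ranges overlapped. All 10 genes passed the filter of 1 FPKM in 3 libraries, with 355 to 17443 reads behind each value. The plot of FPKM by library shows these levels.

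**Figure D1:**
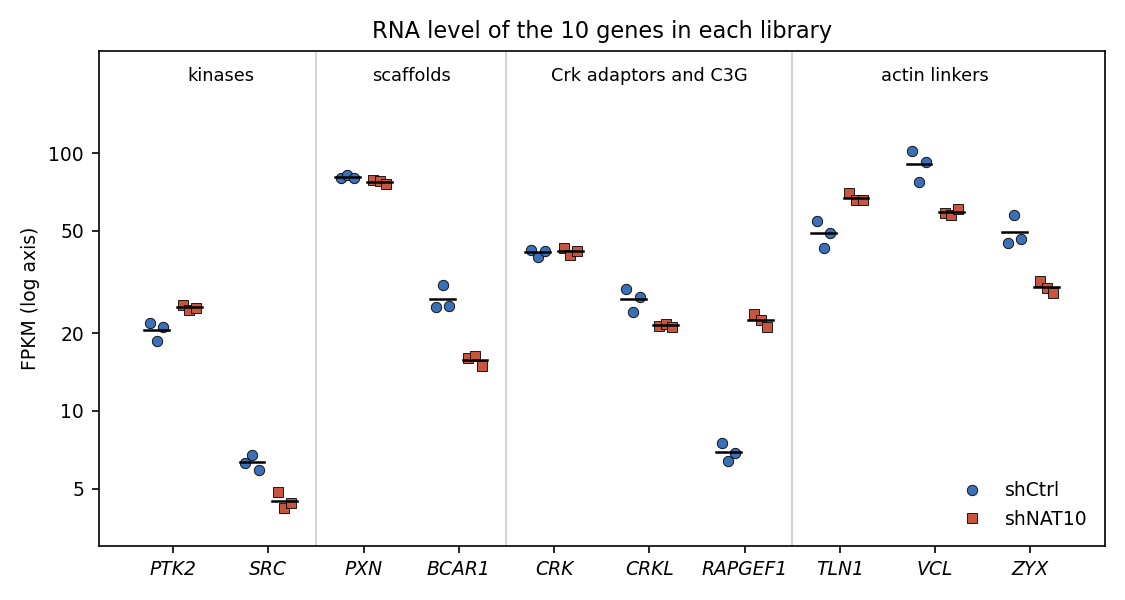
RNA level (FPKM, log axis) of each of the 10 genes in the 3 shCtrl libraries (circles) and the 3 shNAT10 libraries (squares), with the group mean as a bar. RAPGEF1 moved from the level of SRC to that of CRKL, while the points of CRK overlapped.

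Of the 10 genes, 5 were called lower and 3 higher at an adjusted p under 0.05 in limma, fitted on log2 of FPKM + 0.1 over 12982 genes. Among all genes tested, 21.2% were called lower and 20.8% higher. The groups did not overlap for 6 of the 10 genes on the lower side and 3 on the higher side, against 28.6% and 27.9% of all genes tested. The median log2 fold change of the 10 genes was -0.20 and that of all genes -0.01. The study named PXN among focal adhesion genes that it picked as lower in these same libraries, and BCAR1 from its ac4C data, so these are not independent choices. An exact permutation test of 3 libraries against 3 cannot go below p = 0.1 (two-sided), the value it gave for 9 of the 10 genes. The plot of log2 fold changes sets the 10 genes against all genes.

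**Figure D2:**
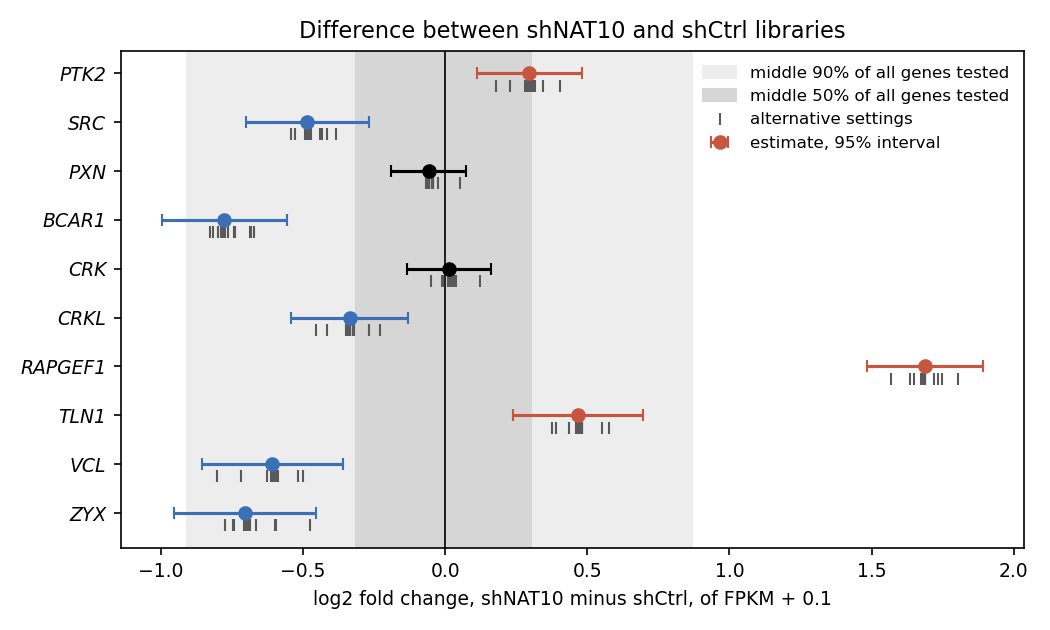
Log2 fold change (shNAT10 minus shCtrl) of each gene with its 95% interval, coloured by call (red higher, blue lower, black not called), with ticks for the alternative settings below it and grey bands for the middle 50% and 90% of all genes tested. RAPGEF1, at 1.69, lay beyond the wider band, whose upper end was 0.87, and the intervals of PXN and CRK included 0.

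The 2 kinases moved in opposite directions. PTK2 (chr8, minus strand), which encodes FAK, stood at 21.9, 18.7 and 21.1 FPKM in shCtrl and at 25.8, 24.8 and 25.1 FPKM in shNAT10. Every shNAT10 library lay above every shCtrl library, and the change was the smallest of the 8 that were called (log2 fold change 0.30, SE 0.08, limma adjusted p = 0.0215). With each library corrected for length and GC content it was 0.18 (limma adjusted p = 0.0125). SRC (chr20:37344685-37406050, plus strand), the founding member of the Src family of kinases, stood at 6.29, 6.73 and 5.92 FPKM in shCtrl and at 4.84, 4.21 and 4.40 FPKM in shNAT10. All shNAT10 libraries were lower (log2 fold change -0.49, SE 0.09, limma adjusted p = 0.00596), and with 355 to 645 reads per library SRC had the thinnest counts of the 10 genes. The ratio of SRC to PTK2 within a library, which does not depend on how libraries are scaled, was 0.309 ± 0.0442 in shCtrl and 0.178 ± 0.00918 in shNAT10 (SD, n = 3 each) without overlap. The call of PTK2 was lost in 4 of the 6 fits that left out 1 library, those without shCtrl replicate 3 or without any 1 of the shNAT10 replicates, at adjusted p = 0.0564 to 0.0823, and without shCtrl replicate 2 its log2 fold change was 0.23 (limma adjusted p = 0.00772).

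The scaffolds differed from each other. PXN (chr12:120210439-120265771, minus strand) stood at 79.9, 82.1 and 80.1 FPKM in shCtrl and at 78.5, 78.1 and 76.1 FPKM in shNAT10. The groups did not overlap, yet the difference was small and did not pass the test (log2 fold change -0.06, 95% interval -0.19 to 0.07, limma adjusted p = 0.443). PXN shares 925 exon bases with 2 genes on the other strand, PXN-AS1 and AC004263.1. BCAR1 (chr16:75228187-75268053, minus strand) stood at 25.3, 30.7 and 25.6 FPKM in shCtrl and at 16.1, 16.3 and 15.0 FPKM in shNAT10. All shNAT10 libraries were lower, by 1.72-fold on the means (log2 fold change -0.78, SE 0.09, limma adjusted p = 0.00093), which was the largest decrease among the 10 genes in this fit. Without shCtrl replicate 2 and with the correction for length and GC content, VCL had the larger decrease. The call of BCAR1 kept its side without shCtrl replicate 2, the highest of its libraries (log2 fold change -0.69, limma adjusted p = 8.8e-05). BCAR1 shares 788 exon bases with AC009078.3 on the same strand, and the sources used here do not say how reads on them were counted. The ratio of PXN to BCAR1 within a library rose from 2.99 ± 0.272 to 4.92 ± 0.141 (SD, n = 3 each), without overlap (exact permutation p = 0.1, the smallest possible).

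The Crk adaptors and C3G gave the widest spread. CRK (chr17:1420689-1463162, minus strand) stood at 42.1, 39.7 and 41.8 FPKM in shCtrl and at 42.9, 40.2 and 41.7 FPKM in shNAT10. These groups overlapped (log2 fold change 0.01, 95% interval -0.13 to 0.16, limma adjusted p = 0.881). CRKL (chr22:20917426-20953749, plus strand), its close relative from another gene, stood at 29.8, 24.3 and 27.6 FPKM in shCtrl and at 21.5, 21.8 and 21.1 FPKM in shNAT10. All shNAT10 libraries were lower (log2 fold change -0.34, SE 0.09, limma adjusted p = 0.0195). The ratio of CRKL to CRK fell from 0.659 ± 0.048 to 0.516 ± 0.0229 (SD, n = 3 each), again without overlap. The call of CRKL was lost in 4 of the 6 fits that left out 1 library, the same 4 as for PTK2, at adjusted p = 0.0618 to 0.0739, and with TPM in place of FPKM (log2 fold change -0.23, limma adjusted p = 0.172).

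RAPGEF1 (chr9:131576770-131740074, minus strand), which encodes the Rap1 exchange factor C3G, stood at 7.49, 6.39 and 6.86 FPKM in shCtrl and at 23.8, 22.6 and 21.1 FPKM in shNAT10. The lowest shNAT10 library lay far above the highest shCtrl library (log2 fold change 1.69, 95% interval 1.48 to 1.89, limma adjusted p = 5.68e-05). An increase beyond 1 on the log2 scale was called for 2.91% of all genes tested. The ratio of RAPGEF1 to CRK, its partner, went from 0.168 ± 0.00902 to 0.541 ± 0.0296, and BCAR1, the scaffold upstream, went from 3.97 ± 0.744 times the level of RAPGEF1 to 0.703 ± 0.0239 times (SD, n = 3 each). Under the 16 alternative settings the log2 fold change of RAPGEF1 ranged from 1.57 to 1.81 and was called in each.

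The actin linkers split as well. TLN1 (chr9:35696948-35732395, minus strand) stood at 54.7, 42.8 and 49.1 FPKM in shCtrl and at 70.2, 65.8 and 65.9 FPKM in shNAT10. All shNAT10 libraries were higher (log2 fold change 0.47, SE 0.10, limma adjusted p = 0.0086). VCL (chr10:73995193-74121363, plus strand), the protein that binds opened talin, stood at 102, 77.1 and 92.8 FPKM in shCtrl and at 58.7, 57.7 and 60.6 FPKM in shNAT10. All shNAT10 libraries were lower (log2 fold change -0.61, SE 0.11, limma adjusted p = 0.0041). VCL shares 1109 exon bases with AP3M1 on the other strand. Such overlaps were 61 bases for TLN1 (with CREB3) and 82 for ZYX (with EPHA1). Within a library, VCL stood at 1.86, 1.80 and 1.89 times the level of TLN1 in shCtrl and at 0.836, 0.878 and 0.921 times in shNAT10, so the order of the 2 genes was turned in every library. In shCtrl replicate 2, where VCL and TLN1 were both at their lowest for the group, the ratio of 1.80 lay next to the other values.

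ZYX (chr7:143381080-143391111, plus strand), a LIM protein of stressed actin fibres, stood at 44.7, 57.4 and 46.5 FPKM in shCtrl and at 31.9, 30.1 and 28.6 FPKM in shNAT10. All shNAT10 libraries were lower (log2 fold change -0.70, SE 0.11, limma adjusted p = 0.00234). Its ratio to VCL overlapped between the groups (0.561 ± 0.161 and 0.512 ± 0.0363, SD, n = 3 each, exact permutation p = 0.9). Within its group, shCtrl replicate 2 held the highest value of ZYX and BCAR1, whose longest transcripts have 64.9% and 63.1% GC, and of PXN and SRC, at 60.2% and 59.3% GC. It held the lowest value of VCL, PTK2, CRK and CRKL, at 44.6% to 49.2% GC, and also of RAPGEF1 and TLN1, at 58.7% and 57.7% GC. Without that library the 8 calls kept their direction and their side of the threshold: VCL had a log2 fold change of -0.72 (limma adjusted p = 6.12e-05), ZYX of -0.59 (0.000191), TLN1 of 0.37 (0.00188), SRC of -0.44 (0.00514) and CRKL of -0.42 (0.000696). With each library corrected for GC content and length, VCL was at -0.80 and ZYX at -0.47, and the same 8 genes were called.

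The acRIP-seq peaks were deposited as 1 list per group, where a peak caller's ratio of IP to input, called fold enrichment here, stands beside each peak, so replicates cannot be compared and no test between groups is possible. The reads behind a peak are not in the lists, so a peak listed in 1 group says nothing about the amount of ac4C that escaped the list in the other. The 10 genes held 35 shCtrl peaks on 9 genes and 29 shNAT10 peaks on 7 genes. A peak was listed in shCtrl for 49.6% of all genes tested in RNA-seq and in shNAT10 for 47.7%. With a mean shCtrl FPKM of at least 5 these shares were 60.6% and 58.7%. Among the 10 genes, PXN and PTK2 had peaks in shCtrl only, as did 15.8% of all genes tested, and SRC had none in either list.

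Of the 35 shCtrl peaks, 17 (48.6%) overlapped a shNAT10 peak by at least 1 base, against 25.6% of all 16892 shCtrl peaks, and of the 29 shNAT10 peaks, 18 (62.1%) overlapped a shCtrl peak, against 27.4% of all 15813. TLN1 gave most of these, with 11 overlapping peaks in each list, 1 gene with peaks along its whole coding sequence. The other overlapping shCtrl peaks were 3 of 3 on ZYX, 2 of 5 on RAPGEF1 and 1 of 2 on CRK. None of those on PXN, BCAR1, PTK2, CRKL and VCL overlapped. The shCtrl peaks of TLN1 held 4483 bases beside a transcript of 8823, and those of ZYX 1699 beside 2493. Whether such dense cover bears on the share of overlaps was not tested. When each of the peaks had to be covered to 50% by the other, 8 peaks of each list remained (22.9% and 27.6%, against 12.7% and 13.6% of all peaks). By midpoint on the longest coding transcript, 20 of 32 shCtrl peaks (62.5%) and 22 of 28 shNAT10 peaks (78.6%) lay in the CDS, against 59.0% and 59.1% of all peaks placed, and 25 of these 42 were peaks of TLN1.

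The fold enrichment of these peaks was low within the lists, with a median of 13.5 in shCtrl and 11.7 in shNAT10, against 49.3 and 45.2 over all peaks. Peaks on the 2182 genes with a mean of 20 to 100 FPKM in both groups, a comparison chosen after the values were seen, had medians of 13.7 and 12.7. The 7 of the 10 genes in that range had medians of 11.6 and 8.27 there. In each list 4 peaks of the 10 genes lay at or above the median fold enrichment of all peaks, on RAPGEF1 and PTK2 in shCtrl and on RAPGEF1 and ZYX in shNAT10. The map of peaks along the transcripts shows their places.

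BCAR1 carried 1 peak per group, both in the CDS and 344 bases apart on the transcript. The shCtrl peak had a fold enrichment of 6.09 and the shNAT10 peak 33.3. The RNA of BCAR1 was lower in shNAT10, where 1 peak was listed on it. The study's own acRIP assays of single genes gave a lower ac4C enrichment of BCAR1 after NAT10 knockdown. The 2 values here belong to different places and were not tested against each other. PXN carried 3 shCtrl peaks, 1 in the CDS (fold enrichment 2.70) and 2 in the 3′ UTR (3.69 and 19.9), and none in shNAT10. The midpoints of the 2 in the 3′ UTR lay off the coding transcript of PXN with the longest CDS, so their place depends on the transcript chosen. The 2 shCtrl peaks of PTK2 (17.7 and 88.3) had their midpoints outside its longest coding transcript, and no shNAT10 peak was listed. The RNA of PXN was at nearly the same level in both groups and that of PTK2 was higher in shNAT10. Whether the RNA level bears on which peaks were listed was not tested.

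CRK carried 2 shCtrl peaks in its 3′ UTR (3.45 and 6.89), and the first shared 210 bases with the 1 shNAT10 peak (9.95). CRKL carried 4 shCtrl peaks, 1 late in the CDS (6.67) and 3 in the 3′ UTR (2.20 to 19.5), and 1 shNAT10 peak further along the 3′ UTR (21.9) that overlapped none of them. RAPGEF1 carried 5 shCtrl peaks (28.8 to 1040) and 4 shNAT10 peaks (42.3 to 130), the highest values of the 10 genes. At the shared stretch printed above, the shCtrl peak had a fold enrichment of 1040, at the 91.8 percentile of its list, and the shNAT10 peak 42.3, at the 49.1 percentile. At the other shared place, in the 3′ UTR, the values were 112 and 130. The RNA of RAPGEF1 was 3.25-fold higher in shNAT10, and whether its level bears on these ratios was not tested.

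TLN1, the longest transcript of the 10, carried 14 shCtrl peaks (1.79 to 37.4) and 13 shNAT10 peaks (2.57 to 26.0), or 1.59 and 1.47 per kilobase. At the stretch printed above, the shCtrl peak had a value of 37.4 and the shNAT10 peak 15.6. The shCtrl value belongs to a longer peak of 541 bases, which did not pass the rule of 50% overlap. That shCtrl peak also shared 181 bases with another shNAT10 peak (3.57). At transcript bases 6402 to 6507 the values of the peaks were 27.3 and 26.0. VCL carried 1 shCtrl peak, in the 3′ UTR (1.93), and 4 shNAT10 peaks, 3 of them in the CDS (2.46 to 19.0), none of which overlapped it, while its RNA was lower in shNAT10. ZYX carried 3 shCtrl peaks (3.54 to 28.3), each of which overlapped a shNAT10 peak, and 5 shNAT10 peaks (4.32 to 62.7). Its strongest shNAT10 peak, printed above, was the 1 of these 5 without a shCtrl counterpart. Of the genes called lower, 1 had fewer shNAT10 than shCtrl peaks (CRKL), 1 had as many (BCAR1) and 2 had more (VCL and ZYX), and SRC had none. The same was not counted over all genes called lower, so this is only a description. In ZYX, 2 of the shNAT10 peaks lay within 1 shCtrl peak, so the count does not mean more sequence under peaks. The peaks of ZYX covered 1699 bases in shCtrl and 1284 in shNAT10, and those of VCL 151 and 902. Whether the RNA level bears on these counts was not tested.

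The rest of the focal adhesion machinery was described by 6 lists with 89 genes, of which 72 passed the filter. Of these, 22 (30.6%) were called lower, 13 (18.1%) higher and 37 not, against 21.2% and 20.8% of all genes tested, and their median log2 fold change was -0.03. With TPM, where the calls of all genes also turned towards higher, 15 were lower and 15 higher. Without shNAT10 replicate 1, 2 or 3 the count of lower calls was 14, 14 and 13, and that of all genes fell from 2751 to 1831, 1897 and 1765. The strip plot of the lists shows that each of them but the relatives of paxillin and zyxin held calls in both directions.

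Among 16 genes listed as actin linkers of the integrin tail, 6 were lower and 3 higher (median log2 fold change -0.13). TLN2, the second talin, fell from 3.14 ± 0.584 to 1.52 ± 0.0897 FPKM (log2 fold change -0.98, limma adjusted p = 0.0031), the other way from TLN1, which stood far higher per length. The tensins, which bind integrin tails, were split: TNS4 fell (-0.99), and TNS2 (0.52) and TNS3 (0.91) rose. VASP, which speeds actin growth and is held by zyxin, rose by 0.50 (limma adjusted p = 0.00853) while ZYX fell, and PDLIM7 fell (-0.56).

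Of 5 tested genes of the ILK, PINCH and parvin complex, a second bridge from integrins to actin, PARVA (-0.39), PARVB (-0.37) and RSU1 (-0.38) were lower and LIMS1, which encodes PINCH1, was higher (0.35, limma adjusted p = 0.0412). ILK itself was at 0.15 and did not pass (limma adjusted p = 0.202). Of 6 relatives of paxillin and zyxin, 2 were lower: TGFB1I1 (Hic-5, a paxillin relative), from 3.92 ± 1.03 to 2.19 ± 0.196 FPKM (log2 fold change -0.78, limma adjusted p = 0.0158), and AJUBA (-0.51), a LIM protein like zyxin. LPXN, another paxillin relative, stood at 1.17 ± 0.231 and 1.38 ± 0.278 FPKM and did not pass (limma adjusted p = 0.469). Of 6 tested relatives and partners of p130Cas, SHC1 was lower (-0.58) and NCK2, an SH2 and SH3 adaptor like CRK, was higher, from 8.76 ± 0.287 to 17.9 ± 1.04 FPKM (log2 fold change 1.03, limma adjusted p = 0.000149). NEDD9, the nearest relative of BCAR1, stayed at 0.0701 to 0.164 FPKM in all libraries and was not tested.

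Of 11 tested relatives, activators and inhibitors of FAK and Src, 2 were lower and 4 higher (median 0.18). CSK, the kinase that inhibits Src family members, rose from 12.0 ± 1.77 to 21.7 ± 0.811 FPKM (log2 fold change 0.86, limma adjusted p = 0.00115) while SRC fell. The Src relatives did not move as one: LYN fell from 10.04 ± 0.451 to 3.14 ± 0.295 FPKM (log2 fold change -1.65, limma adjusted p = 6.83e-05), YES1 rose from 31.7 ± 5.12 to 44.6 ± 1.08 FPKM (0.50, limma adjusted p = 0.0144), and FYN stood at 1.01 FPKM in both groups. YES1 stood above SRC per length in every library. PTPN1, a phosphatase, fell (-0.66), PTPN11, the phosphatase SHP2, rose (0.87), and RB1CC1, which encodes the FAK inhibitor FIP200, rose (0.54). PTK2B, the second FAK family kinase, stayed below 1 FPKM, at 0.396 to 0.687 FPKM, and was not tested.

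Of 28 tested small GTPases and regulators downstream, 8 were lower and 4 higher (median -0.05). DOCK1, the Rac exchange factor that CRK and p130Cas recruit, rose from 10.2 ± 1.74 to 22.02 ± 0.902 FPKM (log2 fold change 1.12, limma adjusted p = 0.000668), while its partner ELMO2 fell (-0.70). RAC1, the GTPase they act on, rose from 104 ± 11.8 to 204 ± 3.96 FPKM (log2 fold change 0.98, limma adjusted p = 0.000339), and its effector kinase PAK1 fell (-0.87). ARHGAP35, which encodes p190RhoGAP, rose (0.94), and RAP1GAP, which switches off the GTPase that C3G switches on, fell from 1.61 ± 0.156 to 0.959 ± 0.0908 FPKM (-0.69, limma adjusted p = 0.0173).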

How the data were processed

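RNA-seq and acRIP-seq libraries were grouped by their labels. The authors counted reads on genes and deposited FPKM, 1 column per library. The submitters' processing notes name HISAT2 2, HTSeq 0.11.0, DESeq2 1.22.2 and GRCh38 without roles. For acRIP-seq the authors deposited 1 peak list per group, in which each peak has a ratio of IP to input (fold enrichment) and a p-value. The peak caller is not given in the sources used here.

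Genes and transcripts were taken from GENCODE v29 (58039 of 58302 genes matched). The 12982 genes that reached 1 FPKM in at least 3 libraries entered a limma fit (version 3.58.1, R 4.3.3) of log2(FPKM + 0.1) with trend. Calls were made at a Benjamini-Hochberg adjusted p below 0.05. Reads were recovered from the FPKM (96.9% of values above 0 within 0.005 of a whole read) and used for depth and 1 alternative. The midpoint of a peak gave its place on the gene's longest coding transcript. Scripts were tested on simulated data. Python 3.11.15 with SciPy 1.17.1 gave exact permutation tests.

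The 10 genes and the other lists were chosen with earlier results of these data known. Named from each list were up to 3 called genes with the largest change in each direction, and TLN2, TGFB1I1, LPXN, NEDD9, PTK2B, FYN and YES1 whatever their values. ILK was named after its value was seen. Alternatives were another pseudocount, filter, scaling, model or transcript, each library left out, and other peak limits.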

Additional observations from a re-analysis of the deposited data

How the results depend on the processing

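The calls of BCAR1, SRC, RAPGEF1, TLN1, VCL, ZYX and NAT10 kept their direction and their side of the threshold under all 16 alternatives for RNA-seq. PTK2 was not called in 4 fits without 1 library, where all such fits gave log2 fold changes of 0.23 to 0.34. CRKL was not called in the same 4 fits or with TPM (-0.23), and all fits without 1 library gave it -0.42 to -0.27. The fits without 1 library rest on fewer libraries. With the length and GC correction PTK2 was at 0.18. TPM moved the median of all genes by 0.10 on the log2 scale and the share of higher calls among all calls from 49.5% to 61.1%. Signs that changed were those of genes not called: PXN was at 0.051 with TPM, and CRK was at -0.050 with the length and GC correction and between -0.013 and 0.038 without 1 library, below 0 without shCtrl replicate 2 or shNAT10 replicate 1. Among all genes, leaving out 1 library gave 1765 to 3318 lower and 1774 to 3303 higher calls, against 2751 and 2699. For the other focal adhesion genes it gave 13 to 28 lower calls, and TPM gave 15 lower and 15 higher in place of 22 and 13. Of the 10 genes, 4 to 5 were then called lower and 2 to 3 higher. The cause of these differences was not tested.

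The replicate numbers did not pair the libraries (correlations of deviations of -0.043, 0.064 and 0.107 between same-numbered libraries). With the replicate number as a block, 2603 genes were called lower and 2524 higher, and the 10 genes gave 5 and 3, the calls without the block.

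For acRIP-seq, the 50% of peaks with the highest ratios in each list held 4 shCtrl and 4 shNAT10 peaks of the 10 genes in place of 35 and 29, and with an overlap of 50% of both peaks, 8 and 8 overlapped in place of 17 and 18. The peaks in the CDS were 20 and 22 also on the transcript with the longest CDS. On it, 30 shCtrl and 28 shNAT10 peaks had a place, in place of 32 and 28. With 1 list per group, replicate error and the depth behind a peak stay unknown.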
